A study of Mus musculus with 6 samples.

Results

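The genes described here are those that decide whether a cell passes from G1 into S phase: the CDK inhibitors Cdkn1a, Cdkn1b, Cdkn2c and Cdkn2d, the D cyclins Ccnd1, Ccnd2 and Ccnd3, the kinases Cdk4 and Cdk6, and Rb1. They were found by matching the RefSeq accession of each deposited entry to its gene symbol. All 10 genes were found, on 11 of 23146 entries, since the accession of Cdkn2d stands at 2 loci. All 10 passed the filter of a mean of at least 1 RPKM, that is reads scaled to transcript length and to the mapped reads of the library.

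The series asked what loss and gain of KAI1, a tetraspanin membrane protein encoded by Cd82, do to mRNA levels. RNA was sequenced in 6 libraries of the mouse line EML: a KAI1 knockdown (n = 2) with its knockdown control (n = 2), and a KAI1 overexpression (n = 1) with its overexpression control (n = 1). EML is a blood progenitor line made from mouse bone marrow with a dominant negative retinoic acid receptor, and it depends on stem cell factor, which every group received at 200 ng/ml. The labels give all groups the strain BDF1, the tissue bone marrow and the cell type basophil. They call the controls wild type. How the knockdown and the overexpression were made is not stated in the sources used here. Replicates are numbered but not stated to be separate cultures, so a p-value here speaks only of the spread between the libraries at hand, and that spread may be technical.

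D cyclins bind CDK4 or CDK6, and the resulting kinases phosphorylate the retinoblastoma protein RB, which then releases E2F factors that switch on the genes of DNA replication. INK4 inhibitors (here p18 from Cdkn2c and p19 from Cdkn2d) bind CDK4 and CDK6 directly, whereas the CIP/KIP inhibitors p21 (Cdkn1a) and p27 (Cdkn1b) block CDK2 complexes and also sit on complexes of D cyclins. In blood progenitors these inhibitors are known for holding cells in quiescence, and KAI1 has been linked to quiescence through them.

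Some features of the libraries bear on every result. The depth, estimated from the steps between low values, ran from 9650000 to 25200000 reads, with the lowest in knockdown control replicate 2. Cd82 stood at 7.65 and 6.91 RPKM in the KAI1 knockdown, against 43.9 and 13.8 RPKM in its controls, and at 15.2 RPKM in the KAI1 overexpression, against 11.9 RPKM in its control. Knockdown control replicate 1 stood apart: 2142 of 10112 entries, or 21.2%, differed at least 2-fold between both knockdown controls, against 257 entries, or 2.54%, between both knockdown libraries. All 14 mast cell and basophil markers looked for were found. Their summed level was 8893 and 7871 RPKM in the KAI1 knockdown against 78191 and 16687 RPKM in its controls. It was 28024 RPKM in the KAI1 overexpression against 6561 RPKM in its control. Most of this sum came from the protease genes Mcpt2 and Cma1, at 34429 and 22312 RPKM in knockdown control replicate 1. The 11 erythroid markers that could be matched, of 12, summed to 2400 and 2723 RPKM in the knockdown against 171 and 2871 RPKM in its controls, and to 696 RPKM in the overexpression against 2241 RPKM in its control, with the late marker Slc4a1 under 1 RPKM in every library. The globin gene Hbb-bt made up most of the erythroid sum in every library except knockdown control replicate 1. It stood at 1901 and 2117 RPKM in the knockdown and 57.5 and 2304 RPKM in its controls. In control replicate 1 the largest part of the sum was Gata1. Of the 10 erythroid markers tested, 8 were lower in knockdown control replicate 1 than in replicate 2. Gata1 (87.3 RPKM) and Epor (15.6 RPKM) went the other way and were highest of the 6 libraries in replicate 1. The markers of the labelled basophil type did not go together. The basophil protease gene Mcpt8 stood at 234 and 116 RPKM in the knockdown against 160 and 389 RPKM in its controls, and at 3908 RPKM in the overexpression against 491 RPKM in its control, so that among the knockdown controls it ran against the marker sum. Prss34, another basophil protease gene, was under 1 RPKM in all libraries but the KAI1 overexpression (4.20 RPKM), and Fcer1a, of the IgE receptor, was listed at 0 in knockdown replicate 1 and control replicate 2 and passed 1 RPKM only in control replicate 1 (24.2 RPKM) and the overexpression (7.41 RPKM). In RNA from a whole culture, fewer cells of a type and less RNA per cell cannot be told apart.

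None of the 10 genes passed the test in the KAI1 knockdown (limma on log2(RPKM + 1), Benjamini-Hochberg adjusted p under 0.05). Of all 10113 entries tested, 3 did, or 0.0297%, with 1 higher and 2 lower in the knockdown, and with 1 each way after quantile normalization. At an unadjusted p under 0.05 the count was also 0 of 10, against 3.32% of all entries. The lowest unadjusted p of a member was 0.135, for Rb1. In 2 genes, Cdkn2c and Rb1, both knockdown libraries lay below both controls, as they did in 17.0% of all entries. In 0 of 10 they lay above both, against 21.5% of all entries. The median difference, knockdown minus control, was -0.21 on the log2 scale over the 10 genes and 0.028 over all entries tested, with 4 genes above 0 and 6 below. In the overexpression, which has 1 library a side and no test, Ccnd2 was at least 2-fold higher and Ccnd1 at least 2-fold lower on the RPKM + 1 scale. Of the 9936 entries used there, 4.92% passed that size upward and 5.21% downward.

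**Figure D1:**
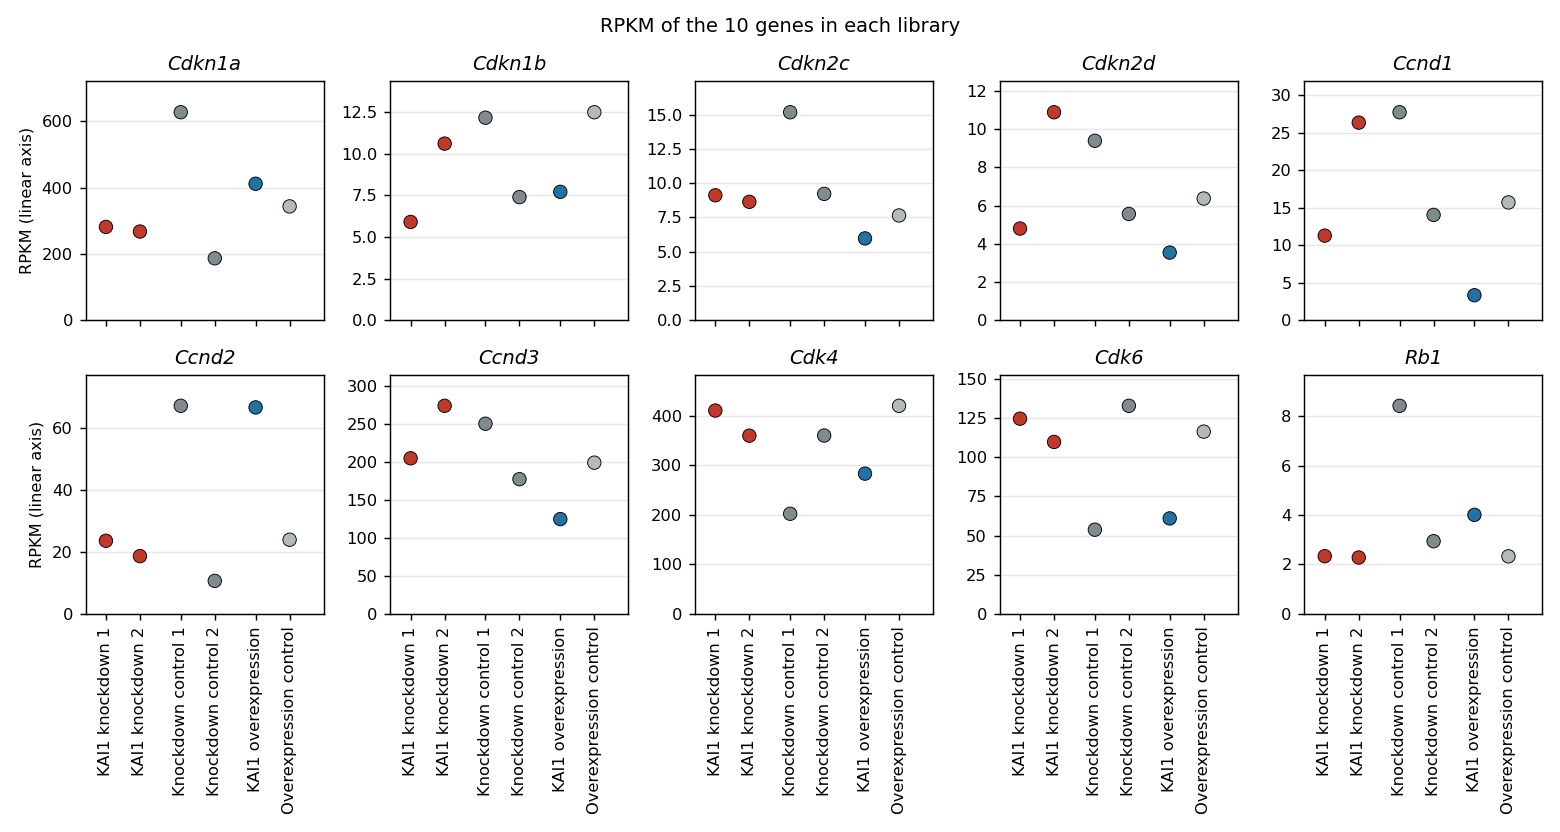
RPKM on a linear axis starting at 0 (vertical) of each of the 10 genes in the 6 libraries (horizontal), each point being 1 library: KAI1 knockdown in red, knockdown controls in dark grey, KAI1 overexpression in blue and its control in light grey. Knockdown control replicate 1 is the highest library for Cdkn1a (628 RPKM), Cdkn2c (15.2 RPKM), Ccnd1 (27.7 RPKM), Ccnd2 (67.1 RPKM) and Rb1 (8.43 RPKM) and the lowest for Cdk4 (202 RPKM) and Cdk6 (53.7 RPKM), and the KAI1 overexpression is the lowest for Ccnd1 (3.33 RPKM).

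Cdkn1a, which encodes p21, the inhibitor that p53 induces, was the most abundant inhibitor in all 6 libraries (chr17:29227931-29237667 on mm9). It stood at 282 and 268 RPKM in the KAI1 knockdown and at 628 and 187 RPKM in the controls. Both knockdown libraries lay between the controls, which were the highest and the lowest of all 6 libraries and 3.36-fold apart, while the knockdown libraries were 1.05-fold apart. The means were 275 ± 9.83 RPKM in the knockdown and 407 ± 312 RPKM in the control (SD, n = 2 each). The log2 difference was -0.32 with a standard error of 0.64 and a 95% interval from -2.05 to 1.41 (limma, adjusted p = 0.919). In the overexpression arm it stood at 412 RPKM with KAI1 overexpression and 344 RPKM in the control, a log2 ratio of 0.26. The long noncoding RNA gene Trp53cor1, the next entry beside it, 12024 bases away, ranged from 1.77 to 5.52 RPKM and was likewise highest in knockdown control replicate 1 and lowest in replicate 2.

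RefSeq gives Cdkn1a more than 1 transcription start, and 2 windows of 250 bases before a start were read on GRCm38.p6, both on the plus strand. They are shown because Cdkn1a carries nearly all transcript of the 4 CDK inhibitors among the 10 genes. A further reason is that the upstream window holds a p53 response element, in capitals, whose first base lies 51 bases before that start. The element was searched by name on both strands as 2 adjoining half-sites over 20 positions with at most 1 mismatch, and it was chosen after the window had been read. It was present in 25 of 32851 promoter windows of the same length, or 0.0761%. In the downstream window the capitals mark 2 GC boxes (GGGCGG, searched on both strands, present in 32.7% of windows). A match describes the letters and shows no binding.
Cdkn1a upstream start, chr17:29090729-29090978: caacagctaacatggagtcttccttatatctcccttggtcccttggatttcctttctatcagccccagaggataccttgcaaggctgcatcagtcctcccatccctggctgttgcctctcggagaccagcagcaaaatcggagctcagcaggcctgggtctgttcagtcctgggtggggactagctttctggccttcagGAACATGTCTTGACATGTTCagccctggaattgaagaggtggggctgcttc
Cdkn1a downstream start, chr17:29093519-29093768: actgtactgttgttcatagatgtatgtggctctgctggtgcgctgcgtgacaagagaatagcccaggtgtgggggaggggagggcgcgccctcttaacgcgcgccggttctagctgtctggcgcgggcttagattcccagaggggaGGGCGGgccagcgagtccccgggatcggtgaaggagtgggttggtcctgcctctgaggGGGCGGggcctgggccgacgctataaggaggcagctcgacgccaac
Trp53, which encodes p53, stood at 73.4 and 73.3 RPKM in the KAI1 knockdown, at 29.1 and 75.6 RPKM in its controls, at 70.2 RPKM in the overexpression and at 74.5 RPKM in its control. It was lowest in knockdown control replicate 1, the library with the highest Cdkn1a. The part of p53 in the level of Cdkn1a was not tested.

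Cdkn1b, which encodes p27, was a low transcript in these cells (chr6:134870419-134875543 on mm9). It stood at 5.90 and 10.6 RPKM in the KAI1 knockdown and at 12.2 and 7.39 RPKM in the controls. The groups overlapped, with a log2 difference of -0.23 and a standard error of 0.39 (limma, adjusted p = 0.899). In the overexpression it stood at 7.71 RPKM, against 12.5 RPKM in its control, a log2 ratio of -0.63. The entry beside it, 3566 bases away, is Lockd, a long noncoding RNA gene. Per length it stood at 8.80 to 31.4 times the level of Cdkn1b: 186 and 204 RPKM in the KAI1 knockdown, 107 and 205 RPKM in its controls, 129 RPKM in the overexpression and 149 RPKM in its control. The ratio was lowest in knockdown control replicate 1, where Lockd was lowest and Cdkn1b the second highest of the 6 libraries. The sources used here do not say whether the libraries keep strand.

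The INK4 genes were also low. Cdkn2c (p18) stood at 9.11 and 8.64 RPKM in the KAI1 knockdown and at 15.2 and 9.22 RPKM in the controls (chr4:109333481-109337977 on mm9). Both knockdown libraries lay below both controls, but the gap to control replicate 2 was small beside the spread between the controls, and the log2 difference of -0.38 had a standard error of 0.31 (limma, adjusted p = 0.830). Against control replicate 2 alone it was -0.050, and against replicate 1 alone -0.71. In the overexpression Cdkn2c stood at 5.97 RPKM, against 7.64 RPKM in its control, the lowest pair of libraries for this gene.

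Cdkn2d (p19) stood at 4.80 and 10.9 RPKM in the KAI1 knockdown and at 9.40 and 5.56 RPKM in the controls, at the locus between Atg4d and Ap1m2 (chr9:21092908-21095653 on mm9). The knockdown libraries enclosed the controls, and the log2 difference was 0.0077 with a standard error of 0.46 (limma, adjusted p = 0.998). In the overexpression it stood at 3.54 RPKM, the lowest of the 6 libraries, against 6.37 RPKM in its control. The values of Cdkn2d are uncertain, since the same accession stands a second time on the chromosome, between Xcr1 and Ccr1 (chr9:123836860-123839607 on mm9). The second entry had 0.846 to 0.938 times the RPKM of the first in every library, so that both rank the 6 libraries in the same order. Of 10 accessions with 2 such loci and a mean of at least 1 RPKM, that of Cdkn2d included, 9 kept the ratio of their loci within a 1.25-fold spread over the 6 libraries. Cdkn2d itself was among these 9, with a 1.11-fold spread. The sources used here do not say how reads that match both loci were assigned. Cdkn2d also rests on the fewest reads of the 10 genes, an estimated 76 in knockdown control replicate 2, for a counting error of 11.4%.

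The other CDK inhibitor genes were taken from a list of 4. Cdkn3, a phosphatase that acts on CDKs, stood at 28.8 and 35.5 RPKM in the KAI1 knockdown, at 31.4 and 51.5 RPKM in its controls, at 25.5 RPKM in the overexpression and at 21.2 RPKM in its control. Its groups overlapped (limma, log2 difference -0.32, adjusted p = 0.845). Cdkn1c (p57), which marks quiescent blood stem cells, was at or below 0.11 RPKM throughout and listed at 0 in 2 libraries. Cdkn2b (p15) was listed at 0 in all libraries except the overexpression control, with 0.030 RPKM. Cdkn2a (p16 and p19ARF) reached 1.43 RPKM in the KAI1 overexpression, against 0.608 RPKM in its control, and was at or below 0.50 RPKM in the knockdown arm.

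Within each library the transcripts of the 4 CDK inhibitors among the 10 genes, which leave out Cdkn3, were nearly all Cdkn1a. It made up 93.4% and 89.9% of the summed RPKM of the 4 inhibitors in the KAI1 knockdown, 94.5% and 89.4% in its controls, 96.0% in the overexpression and 92.8% in its control. Cdkn1b, Cdkn2c and Cdkn2d together came to 19.8 and 30.1 RPKM in the knockdown against 36.7 and 22.2 RPKM in its controls, and to 17.2 RPKM in the overexpression against 26.5 RPKM in its control.

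Among the D cyclins, Ccnd3 was the main transcript in all libraries (chr17:47642000-47748441 on mm9). It stood at 205 and 274 RPKM in the KAI1 knockdown and at 250.04 and 177 RPKM in the controls. The groups overlapped, with a log2 difference of 0.17 and a standard error of 0.33 (limma, adjusted p = 0.915). The KAI1 overexpression had the lowest level of the 6 libraries, 125 RPKM against 199 RPKM in its control, a log2 ratio of -0.67. The deposited span of Ccnd3 is shared with Bysl, which stood at 13.0 to 21.1 RPKM.

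Ccnd2 was the gene whose controls differed most (chr6:127075727-127162437 on mm9). It stood at 23.6 and 18.6 RPKM in the KAI1 knockdown and at 67.1 and 10.6 RPKM in the controls. As for Cdkn1a, the controls were the highest and the lowest of the 6 libraries, 6.32-fold apart, with both knockdown libraries between them. The log2 difference of -0.36 had a standard error of 0.90 (limma, adjusted p = 0.931). In the overexpression Ccnd2 stood at 66.6 RPKM, against 23.9 RPKM in its control, which is 2.71-fold higher on the RPKM + 1 scale. The overexpression library was thus level with knockdown control replicate 1, while the other 4 libraries stood between 10.6 and 23.9 RPKM.

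Ccnd1 had the widest range of the 10 genes, 8.32-fold between the lowest and the highest library (chr7:152115836-152125830 on mm9). It stood at 11.3 and 26.3 RPKM in the KAI1 knockdown and at 27.7 and 14.0 RPKM in the controls. In each group 1 library was well above the other, by more than the distance between the group means, and the log2 difference was -0.18 with a standard error of 0.55 (limma, adjusted p = 0.942). In the overexpression Ccnd1 stood at 3.33 RPKM, below all other libraries, against 15.7 RPKM in its control, which is 3.86-fold lower on the RPKM + 1 scale; the log2 ratio was -1.95, and -1.31 with a pseudocount of 5. This value rests on an estimated 238 reads.

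The 3 genes whose profile over the 6 libraries was most like that of Ccnd1, among 6872 protein-coding entries, were Epor, Uba7 and Tmem44, at distances of 0.869, 0.947 and 0.954, where the median entry was at 2.35. The distance is Euclidean, between log2(RPKM + 1) profiles centred on their own mean. Epor, the erythropoietin receptor gene, stood at 9.63 and 12.7 RPKM in the KAI1 knockdown, at 15.6 and 14.8 RPKM in its controls, at 2.27 RPKM in the overexpression and at 10.4 RPKM in its control. For Ccnd2 the most alike were Plec, Mvp and Ftl1, at distances of 0.695, 0.731 and 0.741, where the median entry was at 2.40. Plec, the gene of the cytoskeletal linker plectin, stood at 14.2 and 17.0 RPKM in the KAI1 knockdown, at 73.5 and 8.16 RPKM in its controls, at 43.5 RPKM in the overexpression and at 16.6 RPKM in its control.

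**Figure D2:**
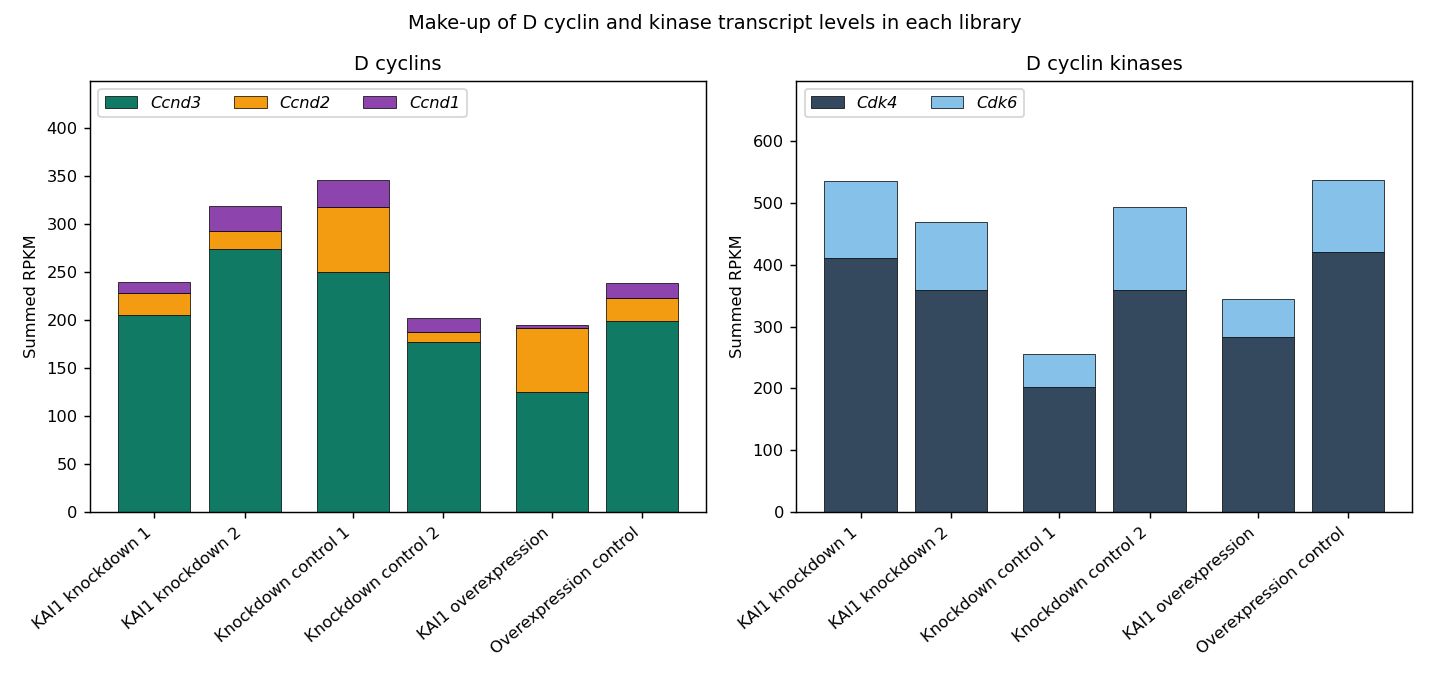
Summed RPKM (vertical, from 0) of the D cyclins at left and of Cdk4 with Cdk6 at right, stacked by gene, in each of the 6 libraries (horizontal), 1 bar a library. Ccnd2 takes 34.3% of the D cyclin sum in the KAI1 overexpression and 19.5% in knockdown control replicate 1, and 10.03% or less elsewhere, and the kinase sum is lowest in the same pair of libraries, at 344 and 256 RPKM.

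As a share of the D cyclin sum, Ccnd2 made up 9.85% and 5.84% in the KAI1 knockdown and 19.5% and 5.27% in its controls, and 34.3% in the overexpression against 10.03% in its control. Ccnd3 made up 85.4% and 85.9% in the knockdown and 72.5% and 87.8% in its controls, and 64.0% in the overexpression against 83.4% in its control. These shares do not depend on how a library is scaled. Ccnd2 was 20.02 times Ccnd1 in the KAI1 overexpression, whereas in the other 5 libraries this ratio ran from 0.707 to 2.42. The libraries with the largest Ccnd2 share were also those with the highest mast cell and basophil marker sums. The sum was 28024 RPKM in the KAI1 overexpression, which had the larger share, and 78191 RPKM in knockdown control replicate 1. Knockdown control replicate 2 had the next highest sum, 16687 RPKM, but the lowest Ccnd2 share of the 6 libraries. The part of these markers in the result was not tested.

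Cdk4, the kinase partner of the D cyclins found in most tissues, stood at 410 and 359.5 RPKM in the KAI1 knockdown and at 202 and 359.7 RPKM in the controls (chr10:126500659-126504338 on mm9). Knockdown replicate 2 and control replicate 2 were level, control replicate 1 was the lowest library of all, and the groups overlapped. The means were 385 ± 35.8 RPKM in the knockdown and 281 ± 112 RPKM in the control (SD, n = 2 each), with a log2 difference of 0.51 and a standard error of 0.38 (limma, adjusted p = 0.830). Against control replicate 2 alone it was 0.094, and against replicate 1 alone 0.92. In the overexpression Cdk4 stood at 283 RPKM, the second lowest library, against 420 RPKM in its control, the highest, a log2 ratio of -0.57. In the other 4 libraries Cdk4 was the most abundant of the 10 genes per length, whereas in knockdown control replicate 1 and in the KAI1 overexpression that gene was Cdkn1a. The entry of Tspan31, which encodes another tetraspanin, lies 7 bases from that of Cdk4 and stood at 14.6 to 19.9 RPKM.

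Cdk6, the D cyclin kinase known for its part in blood progenitors, stood at 125 and 109.8 RPKM in the KAI1 knockdown and at 53.7 and 133 RPKM in the controls (chr5:3344312-3522225 on mm9). The controls were again the extremes of the 6 libraries, here with replicate 1 the lowest and replicate 2 the highest, and the knockdown libraries lay between them. The log2 difference was 0.46 with a standard error of 0.50 (limma, adjusted p = 0.848). In the overexpression Cdk6 stood at 60.9 RPKM, against 116 RPKM in its control, a log2 ratio of -0.92, or -1.02 and so past 2-fold with upper quartile scaling. Both kinase genes thus ranked knockdown control replicate 1 lowest and the KAI1 overexpression next.

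The promoter windows of Cdk4 and Cdk6 are shown because both genes had their lowest levels in the same pair of libraries. They are the 250 bases before the start given by RefSeq on GRCm38.p6, both on the plus strand. In capitals are the E-box CACGTG, which reads the same on both strands and which MYC is known to bind, the GC box (GGGCGG or, on the other strand, CCGCCC) and, in Cdk6, a TATA box (TATAAA). These motifs do not overlap one another in either window.
Cdk4, chr10:127063285-127063534: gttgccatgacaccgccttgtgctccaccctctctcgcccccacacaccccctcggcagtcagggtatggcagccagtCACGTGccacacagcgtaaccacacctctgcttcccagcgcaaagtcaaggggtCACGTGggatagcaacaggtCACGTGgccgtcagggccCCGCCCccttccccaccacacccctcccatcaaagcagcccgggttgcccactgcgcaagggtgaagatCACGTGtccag
Cdk6, chr5:3343643-3343892: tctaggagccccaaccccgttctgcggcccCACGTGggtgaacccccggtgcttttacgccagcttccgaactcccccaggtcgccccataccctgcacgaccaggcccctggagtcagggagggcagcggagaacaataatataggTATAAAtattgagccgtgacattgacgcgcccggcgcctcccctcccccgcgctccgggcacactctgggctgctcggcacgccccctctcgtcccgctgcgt
The window of Cdk4 held 4 E-boxes, the nearest beginning 11 bases before the start, and that of Cdk6 held 1, beginning 220 bases before it. An E-box was present in 6.02% of all 32851 windows, and a TATA box in 12.4%. None of the 10 windows found for 7 of the 10 genes held the E2F motif (TTTCCCGC or TTTGGCGC, present in 1.3% of all windows), and the table had no window for Ccnd1, Ccnd2 and Rb1. Myc stood at 23.5 and 36.4 RPKM in the KAI1 knockdown, at 12.2 and 24.0 RPKM in its controls, at 43.0 RPKM in the overexpression and at 26.5 RPKM in its control. It was lowest in knockdown control replicate 1, as were Cdk4 and Cdk6, but highest in the KAI1 overexpression, where both kinase genes were second lowest. The part of MYC in these levels was not tested.

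Rb1, whose protein is the substrate of these kinases, was the least abundant of the 10 genes by its mean over the 6 libraries (chr14:73595309-73725598 on mm9). It stood at 2.33 and 2.28 RPKM in the KAI1 knockdown and at 8.43 and 2.94 RPKM in the controls. Both knockdown libraries lay below both controls, though control replicate 2 was much nearer to them than to replicate 1. The log2 difference was -0.88 with a standard error of 0.48 and a 95% interval from -2.18 to 0.41 (limma, adjusted p = 0.830). Against control replicate 2 alone it was -0.25, and against replicate 1 alone -1.51. In the overexpression Rb1 stood at 4.01 RPKM, against 2.33 RPKM in its control, a log2 ratio of 0.59. Its deposited span is shared with Lpar6, a receptor gene, which stood at 3.25 and 2.12 RPKM in the knockdown, at 0.365 and 3.30 RPKM in its controls, at 3.57 RPKM in the overexpression and at 3.28 RPKM in its control. In knockdown control replicate 1 Rb1 was therefore at its highest and Lpar6 at its lowest, while the other 5 libraries had Lpar6 between 2.12 and 3.57 RPKM. The sources used here do not say how reads in the shared span were divided.

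Ratios within a library set inhibitor against cyclin and kinase without regard to scaling. The inhibitor sum over the D cyclin sum was 1.26 and 0.935 in the KAI1 knockdown and 1.93 and 1.04 in its controls, and 2.21 in the overexpression against 1.55 in its control. The groups of the knockdown arm overlapped, and an exact two-sided permutation test of the log2 ratio gave p = 0.667, where 0.333 is the smallest p that 2 libraries against 2 can give. Cdk6 over Cdk4 was 0.304 and 0.305 in the KAI1 knockdown, within the 0.266 and 0.369 of its controls, and 0.215 in the overexpression against 0.277 in its control (exact permutation p = 1 in the knockdown arm). The D cyclin sum over the kinase sum was 0.448 and 0.679 in the knockdown and 1.35 and 0.410 in its controls, and 0.566 in the overexpression against 0.445 in its control. Knockdown control replicate 1 was the only library in which D cyclin transcripts exceeded those of both kinases per length.

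The direction of several genes depended on which control was used. Without knockdown control replicate 2, so that the knockdown was set against replicate 1 alone, 4 of 10 genes passed the test: Cdkn1a at -1.19 (adjusted p = 0.0368), Ccnd2 at -1.63 (0.0351), Rb1 at -1.51 (0.0311) and Cdk6 at 1.11 (0.0465), all as log2 differences by limma. In that fit 1166 entries, or 11.5%, passed. Without replicate 1, so that the knockdown was set against replicate 2 alone, 0 of 10 genes passed and 18 entries, or 0.181%, did. Cdkn1a was then at 0.55, Ccnd2 at 0.92 and Cdk6 at -0.18, as log2 differences. With 1 control library left, the spread comes from the knockdown pair alone and the lone control is assumed to vary like it. Replicate 1 is the library with the highest mast cell and basophil and the lowest erythroid marker sum, and the part of these cells in the difference was not tested. Between the controls alone, 4 of the 10 genes were at least 2-fold apart, beside 21.2% of all entries, and between the knockdown libraries 2 were, beside 2.54%.

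**Figure D3:**
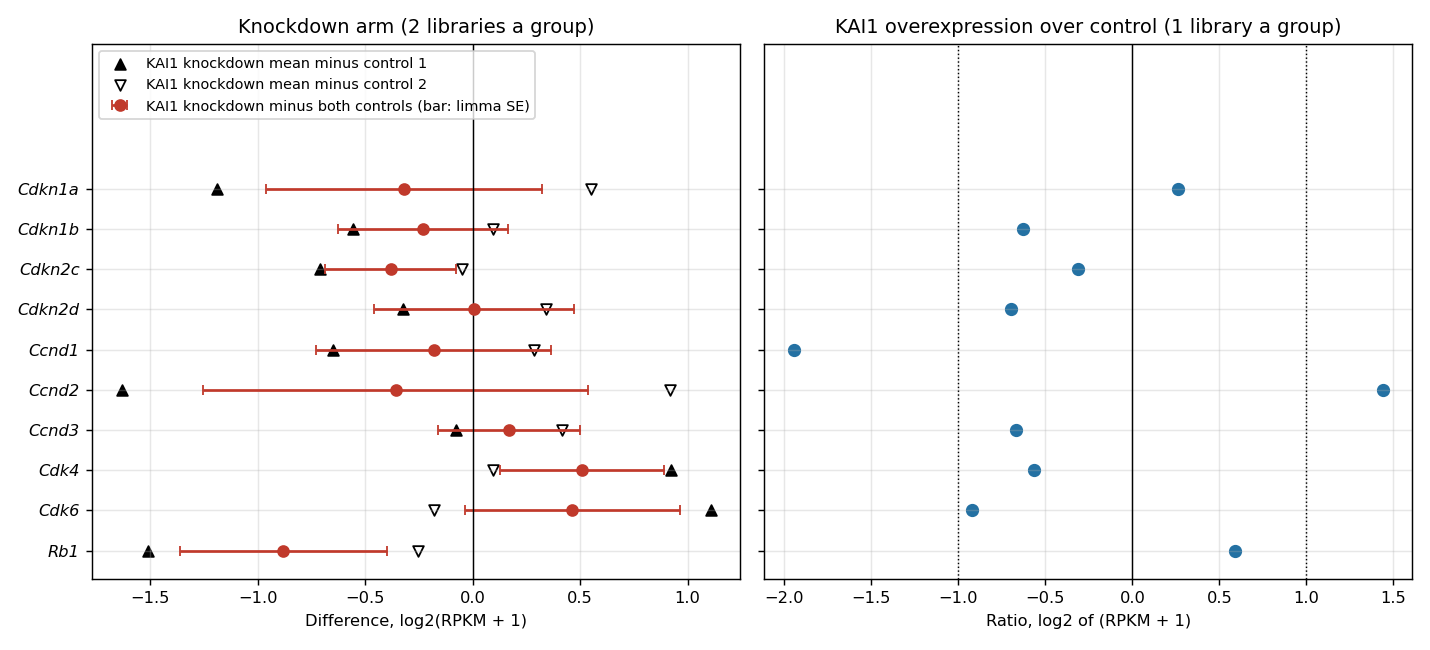
At left, log2(RPKM + 1) differences (horizontal) for each gene (vertical) of the KAI1 knockdown mean minus both controls (red, with the limma standard error as bar), minus control replicate 1 (filled triangles) and minus control replicate 2 (open triangles). At right, the log2 ratio of KAI1 overexpression over its control, 1 library a side, with dotted lines at 2-fold; 7 of the 10 genes, among them Cdkn1a (-1.19 and 0.55), lie on opposite sides of 0 by control replicate, and Ccnd2 (1.44) and Ccnd1 (-1.95) lie beyond the dotted lines, with Cdk6 (-0.92) just inside.

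In the overexpression arm 3 of 10 genes were higher and 7 lower with KAI1 overexpression, with a median log2 ratio of -0.60, against 0.0057 over all entries used. The 3 on the higher side were Ccnd2, Rb1 and Cdkn1a, all 3 with their highest level in knockdown control replicate 1. Cdkn2c and Ccnd1 were also highest in that library, but on the lower side in the overexpression. On the lower side were both INK4 genes, Cdkn1b, both kinases, Ccnd3 and Ccnd1. With 1 library a side there is no replicate check. The KAI1 overexpression library had the higher mast cell and basophil marker sum, 28024 RPKM against 6561 RPKM in its control, and the part of these transcripts in the differences was not tested.

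The rest of the pathway was read from 7 lists of 63 genes in all, of which 58 could be tested in the knockdown. By limma 0 of 58 passed and 2 had an unadjusted p under 0.05, Mycn and Zbtb17, where 3.32% of all entries did. In 20 genes, or 34.5%, the knockdown libraries both exceeded the 2 controls, in 0 both were below them, and the median log2 difference was 0.24, where all entries had 21.5%, 17.0% and 0.028. Among the E2F target genes, which serve DNA replication, 6 of 16 lay above both controls with a median of 0.34, led by the helicase subunit gene Mcm5 at 0.81 (96.5 and 94.7 RPKM in the knockdown, 42.8 and 68.0 RPKM in the controls; adjusted p = 0.830), while the lowest was the polymerase subunit gene Pola1 at -0.15 (adjusted p = 0.923). Among the cyclin E and A genes with CDK2, 3 of 5 lay above both controls, from Ccne2 at -0.14 to the phosphatase gene Cdc25a at 0.55. Among pocket proteins, E2F and DP factors 3 of 12 did, from the repressor gene E2f6 at -0.43 to E2f4 at 0.62.

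Upstream transcription factors had the largest median, 0.63, with 6 of 11 (54.5%) above both controls, where 21.5% of all entries were. The highest was Mycn, at 2.83 and 2.52 RPKM in the knockdown and 0.690 and 1.41 RPKM in the controls, a log2 difference of 0.87 (limma, adjusted p = 0.830), and the lowest Gfi1 at 0.043. Smad3, which carries TGF-beta signals to CDK inhibitor genes, stood at 1.57 and 2.40 RPKM in the knockdown and 0.209 and 1.38 RPKM in the controls. It was at 0.068 RPKM in the overexpression, against 1.57 RPKM in its control, a mean under the filter of 1 RPKM. The genes of the CDK-activating kinase and of CDK4 folding had 1 of 5 (20%) above both controls, from Ccnh at 0.077 to the chaperone gene Cdc37 at 0.47. Those of p27 and cyclin D turnover had 1 of 8 (12.5%), from Gsk3b at -0.37 to Cks1b at 0.40. Neither share exceeded the 21.5% of all entries.

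These counts moved with the control library, in alternatives chosen after seeing the data. Without knockdown control replicate 1, 29 of 58 pathway genes (50%) lay above and 14 (24.1%) below the remaining control, with a median of 0.071. Of all entries 42.4% lay above and 35.9% below. The E2F targets then had 6 above and 6 below with a median of -0.020. Upstream transcription factors had 9 of 11 above and 1 below, with a median of 0.31. Pocket proteins, E2F and DP factors had 7 of 12 above and 1 below, with a median of 0.12. Cyclin E and A genes with CDK2 had 3 of 5 above and 0 below, and the remaining lists had no more genes above than below. Without replicate 2 the counts were 41 (70.7%) above and 11 (19%) below, beside 44% and 41.6% of all entries, and 4 of 58 passed the test, where 11.5% of all entries passed. Knockdown control replicate 1 also had the lowest sum of the 6 proliferation markers, 344 RPKM, against 519 and 576 RPKM in the knockdown and 570.3 RPKM in control replicate 2; their part in the counts was not tested. In the overexpression, of the 58 pathway genes that passed the filter in this arm, 0 passed 2-fold upward and 2 downward, where 4.92% and 5.21% of all entries did. The 2 were Tk1, a thymidine kinase of DNA synthesis, at a log2 ratio of -1.01 and the erythroid repressor Gfi1b at -1.02.

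**Figure D4:**
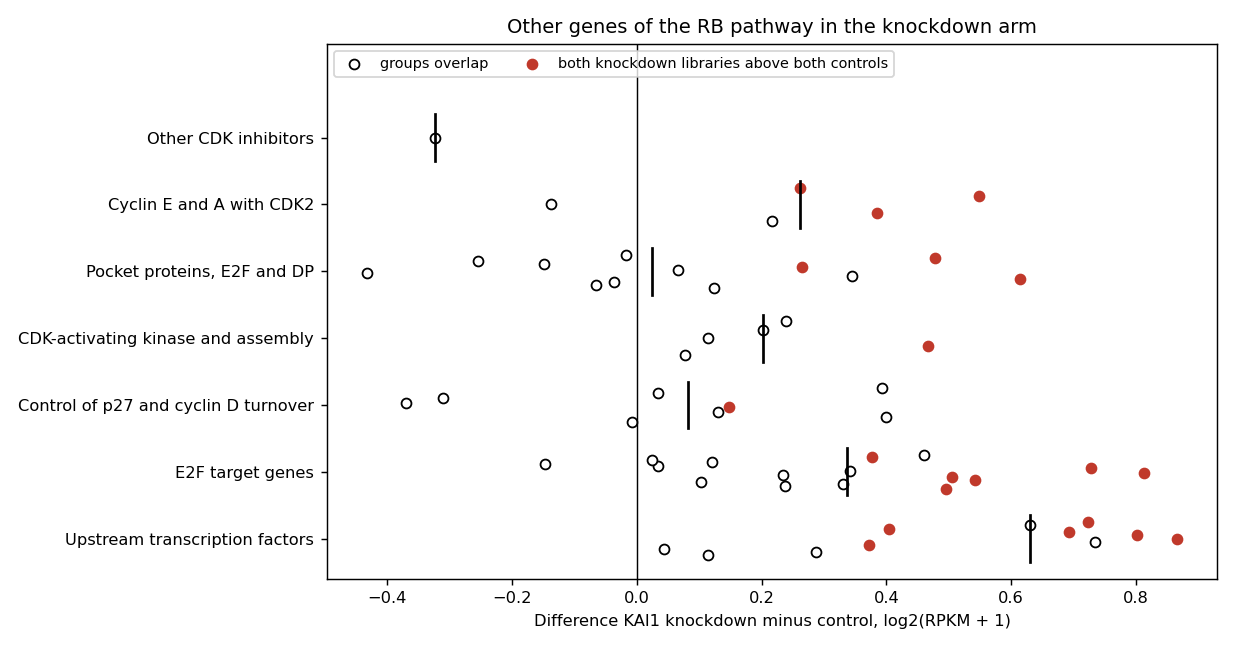
Log2(RPKM + 1) difference, KAI1 knockdown minus control (horizontal), of the 58 tested pathway genes, 1 point a gene, by list (vertical), with small vertical offsets so that points can be told apart. Filled points are the 20 genes with both knockdown libraries above both controls and the upright bar is the median of a list, from -0.32 for the single tested gene of the other CDK inhibitors to 0.63 for upstream transcription factors.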

How the data were processed

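Total RNA of 6 EML libraries was sequenced on the Illumina GAIIx, per the labels. The authors deposited 1 table of RPKM per library, keyed by RefSeq accession and locus, per the file headers. TopHat2 2.0.9, Bowtie, Cufflinks and the build mm9 are named, per the submitters' processing notes. Coordinates of entries are on mm9; promoter sequences are from RefSeq on GRCm38.p6, another build, whose annotation otherwise served for names and transcript lengths. Of 23170 entries 24 were repeats; RefSeq named 22840, GENCODE 125, and 181 had no symbol. The design allowed for RPKM or FPKM, and the headers say RPKM. Depth is not stated and was estimated from steps between low values (32 entries for the absolute scale, quartiles 17600000 and 19300000 reads for knockdown control replicate 1), so no count test was run and read numbers are estimates that cover counting error only.

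The knockdown was tested by limma 3.58.1 in R 4.3.3 with a mean-variance trend on log2(RPKM + 1), two-sided, over the entries whose mean in the 4 libraries reached 1 RPKM, with p-values adjusted by Benjamini and Hochberg at 0.05. This scale understates the change of low genes. The fit was tried on simulated data with the same spread in every library, which does not cover a control library that stands apart. Ratios within libraries were computed in Python 3.11.15 and tested by exact permutation in R 4.3.3. The overexpression arm has 1 library a side and no test. The 10 genes and the lists were chosen with earlier results of these data known. All 10 genes are named; genes most like a member are given where its range was at least 4-fold on the RPKM + 1 scale; from each list the lowest and the highest difference and all other CDK inhibitors are named, and Trp53, Myc, Zbtb17, Smad3, Tk1, Gfi1b, Mcpt8 and the neighbouring genes were chosen after their values were seen. Alternatives covered the pseudocount, the filter, scaling, the trend, a replicate block and each library left out.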

Additional observations from a re-analysis of the deposited data

How the results depend on the processing

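No gene of the 10 passed limma under any alternative that kept all 4 knockdown-arm libraries. The number of genes called among all entries, 3 as reported, was 5 with a pseudocount of 0.1, and by limma 0 with a pseudocount of 5 (334 at an unadjusted p under 0.05) and 0 without the filter (683 at an unadjusted p under 0.05). With each library left out in turn it ran from 0 to 1166, members called from 0 to 4, and members whose groups did not overlap from 4 to 8, against 2 as reported and 1 with a mean of at least 5 RPKM, where Rb1 was not tested. With a library left out the share of all entries whose groups did not overlap also grew, to 42.4% above and 35.9% below without knockdown control replicate 1, 44% and 41.6% without control replicate 2, 31.8% and 25.8% without knockdown replicate 1 and 29% and 26% without knockdown replicate 2. The direction turned for Cdkn1a (0.55), Cdkn1b (0.093), Ccnd1 (0.28), Ccnd2 (0.92) and Cdk6 (-0.18) without knockdown control replicate 1, for Cdkn2d (-0.32) and Ccnd3 (-0.080) without control replicate 2, for Cdkn1b (0.14) and Ccnd1 (0.40) without knockdown replicate 1, and for Cdkn2d (-0.51) and Ccnd3 (-0.041) without knockdown replicate 2. Over these leave-outs the log2 difference ran from -1.19 to 0.55 for Cdkn1a, from -0.61 to 0.14 for Cdkn1b, from -0.51 to 0.53 for Cdkn2d, from -0.76 to 0.40 for Ccnd1, from -1.63 to 0.92 for Ccnd2, from -0.080 to 0.42 for Ccnd3, from -0.71 to -0.050 for Cdkn2c, from 0.094 to 0.92 for Cdk4, from -1.51 to -0.25 for Rb1 and from -0.18 to 1.11 for Cdk6. Upper quartile scaling turned Cdkn2d (-0.032). The cause was not tested. In the overexpression, upper quartile scaling brought Cdk6 to -1.02, making 3 genes at least 2-fold apart, and a pseudocount of 5 brought Ccnd1 to -1.31. With the replicate number as a block (replicate block), 4 genes were called, 1 higher and 3 lower, and 0 of 10 members, whose lowest adjusted p was 0.9989. The replicate 1 minus replicate 2 differences of the groups correlated at -0.075. With 2 pairs, and 1 control library that stands apart, this cannot decide whether same-numbered libraries belong together. Cdkn2d, Cdkn2c and Rb1 rest on as few as 76, 98 and 132 estimated reads in knockdown control replicate 2, which limits their precision; 2 libraries a group limit all tests.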
